A study of Mus musculus with 22 samples.

Results

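The change from late meiotic prophase to haploid germ cells in euploid male mice was measured as the level on 3 spermatid arrays minus the level on 2 mid-late-pachytene spermatocyte arrays. A gene was included where its mean log2 level was at least 4 in either cell type, which 8727 of the 15780 named genes on the arrays met. Just inside that limit lay Myo6, with a higher mean of 4.0011, and just outside it Exo1, with 3.9996. Both cell types were sorted by flow cytometry from the testes of 2-month-old t121/D17 males, the euploid siblings of Ts43H trisomic males. RNA of 20 to 30 ng per sample was labelled in an amplifying protocol and hybridised to Affymetrix arrays. Spermatids (3 arrays) and mid-late-pachytene spermatocytes (2 arrays) of the trisomic siblings, and pre-mid-pachytene spermatocytes of the euploid males (3 arrays), were used for comparison. Whether each array stands for its own animal or for pooled cells is not in the labels, so the p-values measure only a spread between arrays. That spread was estimated from all 22 arrays of the series in 8 groups. These also include euploid and trisomic livers and trisomic pre-mid-pachytene spermatocytes.

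Pachytene spermatocytes have paired their homologous chromosomes in the synaptonemal complex and complete recombination before the meiotic divisions. In these cells the X and Y chromosomes, which pair over a short region only, are condensed in the sex body and transcriptionally silenced. Haploid spermatids then build the acrosome and the flagellum and replace their histones by transition proteins and protamines. Many spermatid mRNAs are made early and stored for translation, because transcription stops as the chromatin condenses.

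The pachytene arrays differed from each other in the genes that mark spermatids, with lower levels on array 2 for most of the genes that rose. Across all genes, which are not independent replicates, these arrays correlated with r = 0.972, and the spermatid arrays with 0.983 to 0.987. Pachytene array 1 had r of 0.812 to 0.842 with the spermatid arrays, and pachytene array 2 had 0.735 to 0.769. The 13 markers of elongating spermatids had median levels of 11.08 and 9.61 on the pachytene arrays, against 14.45, 14.16 and 14.59 on the spermatid arrays. Their summed level was 15.15 and 13.96 on the pachytene arrays and 18.35 to 18.59 on the spermatid arrays, and none of the 13 was below 3, the background range, on any of these arrays. In the euploid pre-mid-pachytene arrays the same median was 13.80 to 13.98 and the summed level 17.86 to 18.10, so spermatid markers were high in that sort as well. Whether spermatid RNA in the sorted spermatocytes has a part in the levels and changes below was not tested. All 13 rose, with a median change of 4.57 (3.79 and 4.94 against pachytene array 1 and 2 alone), and 11 of 12 round spermatid markers rose, with a median of 3.61 (2.80 and 4.50 against pachytene array 1 and 2 alone). Of all 8727 genes 29.9% rose and 35.0% fell. The pachytene markers did not separate the cell types as a list. Their medians were 13.87 and 13.79 on the pachytene arrays and 13.78, 14.02 and 13.59 on the spermatid arrays. Of 12 tested 3 rose and 5 fell (25% and 41.7%, against 29.9% and 35.0% of all genes).

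Of the genes tested, 64.9% differed between the cell types. Of the 8727 genes, 2610 (29.9%) were higher in spermatids and 3058 (35.0%) lower, by limma with Benjamini-Hochberg adjustment at 0.05. Large changes were more often rises: 1409 genes (16.1%) rose by at least 2 log2 units, and 814 (9.33%) fell by as much. At 4 log2 units or more the counts were 530 higher and 80 lower. The median change over all genes was -0.14. Most genes were measured above the limit in both cell types (7647), 647 only in spermatids and 433 only in pachytene. From the background range on both pachytene arrays to at least 6 on all spermatid arrays went 61 genes, and 18 went the other way. Against pachytene array 1 alone 2321 genes were higher and 2578 lower, and against array 2 alone 2394 and 2817. Fewer cells of a type and less RNA per cell cannot be told apart in such bulk samples.

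**Figure D1:**
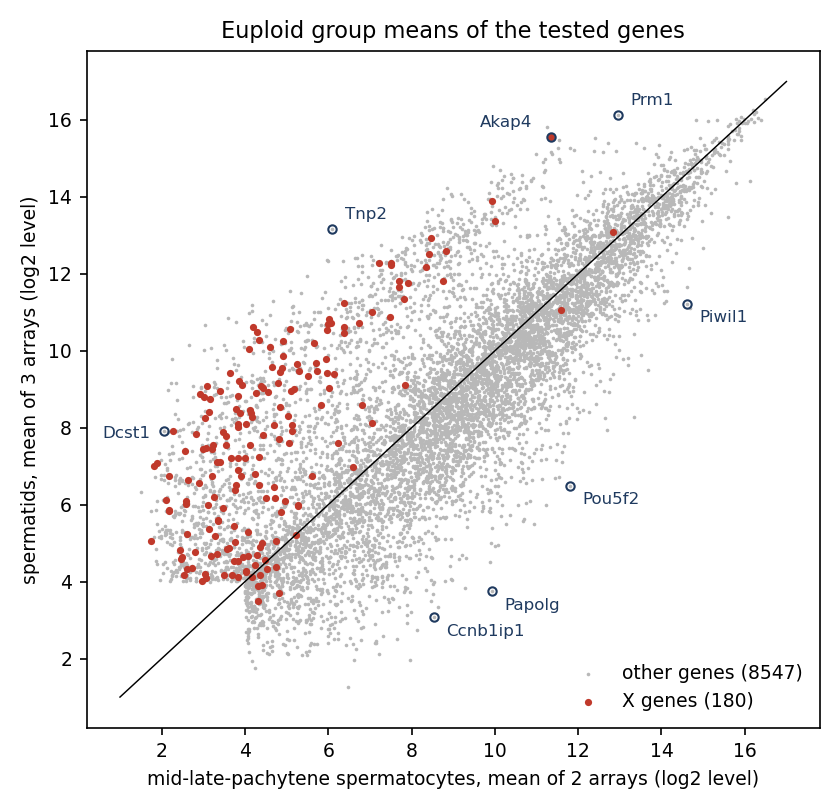
Mean log2 level of each tested gene on the 2 mid-late-pachytene arrays (x axis) and the 3 spermatid arrays (y axis) of euploid males, with the 180 X genes and the other genes in separate colours. The 2610 higher genes include a band that runs about parallel to the diagonal at high spermatid levels, while the 814 genes lower by at least 2 log2 units are scattered.

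The band of strongly expressed spermatid genes in the plot of group means was described by genes chosen for their rise. For the 654 genes that rose by at least 2 log2 units and had a spermatid mean of at least 10, the change had a median of 3.9 and quartiles of 3.28 and 4.63. Their median change was 3.04 against pachytene array 1 alone and 4.74 against array 2 alone. These changes correspond to pachytene levels of 12.1% and 3.73% of those in spermatids. Since rises below 2 log2 units were left out, these values describe the chosen genes and not the width of the band. In the trisomic arrays the same genes had a median change of 3.95. Pachytene array 1 was the higher of the pachytene arrays for 1909 of the 2610 genes called higher (73.1%), with a median difference of 0.35, against -0.09 for the genes called lower.

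The 12 largest rises, between 6.85 and 7.64 log2 units, were those of Tnp2, Azin2, Abhd16b, Mgat4e, Tmem270, Plbd1, Tmco5b and 5 RIKEN transcripts. The RIKEN gene 1700016C15Rik led with 3.03 and 3.06 on the pachytene arrays and 10.49, 10.32 and 11.25 on the spermatid arrays, a rise of 7.64 ± 0.32 (SE, adjusted p = 1.87e-12), or 199-fold. It lay at the edge of the background range on both pachytene arrays and far above it on every spermatid array. Its fold and rank thus rest on values near that range. Others, such as 1700009J07Rik and Tmem270, started within the range, with pachytene means of 2.26 and 2.22. Azin2, an inhibitor of the antizymes that control polyamine synthesis, had 4.97 and 3.35 on the pachytene arrays and 10.81, 11.01 and 11.75 on the spermatid arrays and rose by 7.03 ± 0.39 (SE, adjusted p = 8.49e-11). Abhd16b, an α/β-hydrolase family gene, had 4.77 and 2.40 on the pachytene arrays and 10.78, 10.54 and 11.21 on the spermatid arrays and rose by 7.26 ± 0.51 (SE, adjusted p = 1.13e-09). Only genes without overlapping arrays were ranked among these rises, so that trait of both genes was set by the choice. The rise of Plbd1, which encodes a phospholipase B-like protein, was 6.94 ± 0.46 (SE, adjusted p = 5.11e-10).

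The 12 largest falls lay between 5.15 and 6.16 log2 units on the same scale and left lower levels in spermatids. Papolg, a poly(A) polymerase of somatic type, had 9.43 and 10.41 on the pachytene arrays and 4.12, 2.64 and 4.50 on the spermatid arrays, a fall of 71.7-fold (-6.16 ± 0.47 SE, adjusted p = 2.84e-09). Pou5f2, a POU transcription factor of spermatocytes, had 11.82 and 11.79 on the pachytene arrays and 5.64, 5.92 and 7.93 on the spermatid arrays and changed by -5.31 ± 0.60 (SE, adjusted p = 3.36e-07). Its spermatid arrays spread more than its pachytene arrays but stayed below them. Klhl9, an adaptor of a cullin ubiquitin ligase, had 10.69 and 11.18 on the pachytene arrays and 4.57, 5.04 and 6.87 on the spermatid arrays (-5.44 ± 0.41 SE, adjusted p = 2.89e-09). Gxylt1, a xylosyltransferase that extends sugars on Notch receptors, had 7.86 and 8.39 on the pachytene arrays and 2.56, 2.85 and 2.85 on the spermatid arrays (-5.37 ± 0.21 SE, adjusted p = 5.25e-13). The others were Iqcc, Ccnb1ip1, Susd5, Gem, Nt5dc1, Tmem185b, Gatd1 and Pcdh8. Only genes without overlapping arrays were ranked, so the lack of overlap was set by the choice.

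Of 22 tested genes of chromatin packaging, 12 were higher in spermatids and 4 lower, against 29.9% and 35.0% of all genes, with a median change of 1.94 (1.58 and 2.22 against pachytene array 1 and 2 alone). Tnp2, one of the transition proteins that bridge the exchange of histones for protamines, had 6.92 and 5.26 on the pachytene arrays and 12.92, 13.13 and 13.42 on the spermatid arrays. It rose 134-fold, by 7.06 ± 0.48 (SE, adjusted p = 6.88e-10). The rise was 6.23 against pachytene array 1 alone and 7.89 against array 2 alone. Tnp1, the other transition protein, had 11.82 and 10.67 on the pachytene arrays and 15.70, 15.89 and 15.85 on the spermatid arrays and rose by 4.57 ± 0.57 (SE, adjusted p = 1.22e-06). No array of either gene overlapped between the cell types, and pachytene array 2 was the lower for both. Prm1, a protamine that packs sperm DNA, had 13.47 and 12.45 on the pachytene arrays and 16, 16.15 and 16.25 on the spermatid arrays and rose by 3.17 ± 0.79 (SE, adjusted p = 0.00188), and its partner Prm2 had 9.70 and 8.26 on the pachytene arrays and 13.86, 13.95 and 14.24 on the spermatid arrays and rose by 5.04 ± 0.59 (SE, adjusted p = 5.54e-07). The rises were 4.32 against pachytene array 1 alone and 5.76 against array 2 alone for Prm2, and 4.0 against pachytene array 1 alone and 5.14 against array 2 alone for Tnp1. Prm1, Prm2, Prm3 and Tnp2 neighbour each other on chromosome 16 (chr16:10787935-10796823, GRCm38.p6), and Prm3 had 8.42 and 5.17 on the pachytene arrays and 11.80, 12.14 and 12.70 on the spermatid arrays. The 100 bases before the start of Tnp1 (chr1:73015900-73015999, minus strand) and of Prm1 (chr16:10796824-10796923, minus strand) are printed from RefSeq's GRCm38.p6 promoters because both genes carry, in capitals, the letters TGANNTCA of a cAMP response element with its middle bases free.
Tnp1: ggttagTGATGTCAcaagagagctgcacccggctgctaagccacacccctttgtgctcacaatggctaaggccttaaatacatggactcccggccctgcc
Prm1: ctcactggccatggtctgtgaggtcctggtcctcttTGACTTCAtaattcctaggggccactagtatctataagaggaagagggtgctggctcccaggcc

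H1f7, a spermatid linker histone also known as H1T2, had 9.57 and 8.34 on the pachytene arrays and 13.87, 13.93 and 14.47 on the spermatid arrays and rose by 5.13 ± 0.34 (SE, adjusted p = 5.09e-10). Hils1, a linker histone-like protein of elongating spermatids, rose by 3.76 ± 0.38 (SE, adjusted p = 1.03e-07), and H2al2a, a variant of histone H2A, by 4.41 ± 0.36 (SE, adjusted p = 6.42e-09). Chd5, a remodeller needed for chromatin compaction, rose by 3.11 ± 0.49 (SE, adjusted p = 1.89e-05), and Camk4, a kinase that phosphorylates protamine 2, by 2.37 ± 0.31 (SE, adjusted p = 1.8e-06). H3f3b, a gene for the histone variant H3.3, was among the 4 that fell and had 14.62 and 14.62 on the pachytene arrays and 11.08, 11.03 and 12.86 on the spermatid arrays (-2.96 ± 0.38 SE, adjusted p = 1.49e-06). Spermatid array 3 was the highest of the spermatid arrays for H3f3b and still lay below both pachytene arrays. Kdm3a, a demethylase required for expression of Tnp1 and Prm1, fell by 0.86, and Epc1 and Epc2, of the histone acetylating NuA4 complex, fell by 1.12 and 0.65. Brdt, a bromodomain protein that binds acetylated histones, had 12.66 and 12.38 on the pachytene arrays and 12.88, 13.06 and 12.98 on the spermatid arrays and did not pass the test.

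All 7 tested genes of the testis-specific serine kinases and their substrate Tsks rose, against 29.9% of all genes. Their median change was 4.57 (3.61 and 5.52 against pachytene array 1 and 2 alone). These kinases act in spermatids, and Tssk1 and Tssk2 phosphorylate Tsks. Tssk2 had 11.09 and 9.18 on the pachytene arrays and 14.65, 14.53 and 14.92 on the spermatid arrays and rose by 4.57 ± 0.39 (SE, adjusted p = 1.31e-08). Tssk6, which is required for the histone to protamine exchange, had 8.91 and 7.82 on the pachytene arrays and 13.28, 13.48 and 14.05 on the spermatid arrays and rose by 5.24 ± 0.36 (SE, adjusted p = 7.8e-10). Tssk5 had 4.24 and 2.26 on the pachytene arrays and 9.26, 9.0 and 8.92 on the spermatid arrays, and its rise of 5.81 was 4.82 against pachytene array 1 alone and 6.80 against array 2 alone. For Tssk2 the rise was 3.61 against pachytene array 1 alone and 5.52 against array 2 alone. The neighbours Tssk1 (chr16:17894103-17894202, plus strand) and Tssk2 (chr16:17898537-17898636, plus strand) on chromosome 16 both carry TGANNTCA, in capitals, in the 100 bases before their starts, Tssk1 at 2 places.
Tssk1: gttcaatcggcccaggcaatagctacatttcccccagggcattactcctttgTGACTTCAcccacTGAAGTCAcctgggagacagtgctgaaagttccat
Tssk2: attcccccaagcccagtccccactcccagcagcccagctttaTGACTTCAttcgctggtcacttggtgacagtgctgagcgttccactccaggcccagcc

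Acrosome and sperm-egg interaction genes included many that rose and some with high levels on the pachytene arrays. Of 31 tested, 19 were higher, 1 lower and 11 not called (61.3% higher and 3.23% lower, against 29.9% and 35.0% of all genes). The median change was 3.48 (2.61 and 4.20 against pachytene array 1 and 2 alone). Izumo1, the sperm ligand of the egg receptor Juno, had 10.26 and 7.58 on the pachytene arrays and 13.14, 12.96 and 13.20 on the spermatid arrays and rose by 4.18 ± 0.53 (SE, adjusted p = 1.66e-06), which was 2.84 against pachytene array 1 alone and 5.52 against array 2 alone. Spam1, a hyaluronidase of the sperm surface, had 9.84 and 8.38 on the pachytene arrays and 12.75, 12.35 and 12.66 on the spermatid arrays and rose by 3.48 ± 0.44 (SE, adjusted p = 1.32e-06). Actl7a, an actin-like protein of the acrosome's inner layer, had 10.69 and 8.83 on the pachytene arrays and 13.58, 13.35 and 13.75 on the spermatid arrays and rose by 3.80 ± 0.35 (SE, adjusted p = 2.52e-08). On pachytene array 2 all of these were lower than on array 1, and no array overlapped between the cell types. Dcst1, a membrane protein needed for sperm-egg fusion, stood out by its background levels of 2.07 and 2.07 on the pachytene arrays, against 8.26, 7.46 and 8.01 in spermatids (5.84 ± 0.23 SE, adjusted p = 6.83e-13). Prss37, a protease-like protein needed for fertility, rose by 5.51 ± 0.39 (SE, adjusted p = 1.19e-09).

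Several acrosome genes had high levels on both pachytene arrays. Acr, the protease acrosin, had 12.96 and 12.94 on the pachytene arrays and 13.80, 13.46 and 13.02 on the spermatid arrays, and Adam3, a surface protein of the fertilin family, had 15.27 and 15.17 on the pachytene arrays and 15.36, 15.39 and 15.50 on the spermatid arrays. Neither passed the test, nor did the fertilin gene Adam2, with 15.02 and 14.90 on the pachytene arrays and 14.64, 14.66 and 14.58 on the spermatid arrays. Zpbp, which binds the egg's zona pellucida, rose by 0.66 ± 0.18 (SE, adjusted p = 0.0041). The 1 gene that fell was Gopc, a Golgi protein of acrosome formation, with 9.56 and 9.91 on the pachytene arrays and 7.11, 7.59 and 7.02 on the spermatid arrays (-2.50 ± 0.31 SE, adjusted p = 1.21e-06). Promoter windows of Spam1 (chr6:24791088-24791187, plus strand), Actl7a (chr4:56743322-56743421, plus strand) and Izumo1 (chr7:45621711-45621810, plus strand) are printed for the rising group, with TGANNTCA in capitals. In Izumo1 the match is the full palindrome TGACGTCA.
Spam1: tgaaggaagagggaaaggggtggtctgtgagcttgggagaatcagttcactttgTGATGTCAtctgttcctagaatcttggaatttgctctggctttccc
Actl7a: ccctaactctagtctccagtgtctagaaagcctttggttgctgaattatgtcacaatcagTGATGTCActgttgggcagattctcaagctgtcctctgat
Izumo1: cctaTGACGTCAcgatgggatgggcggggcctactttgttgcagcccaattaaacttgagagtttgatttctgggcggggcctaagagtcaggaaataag

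**Figure D2:**
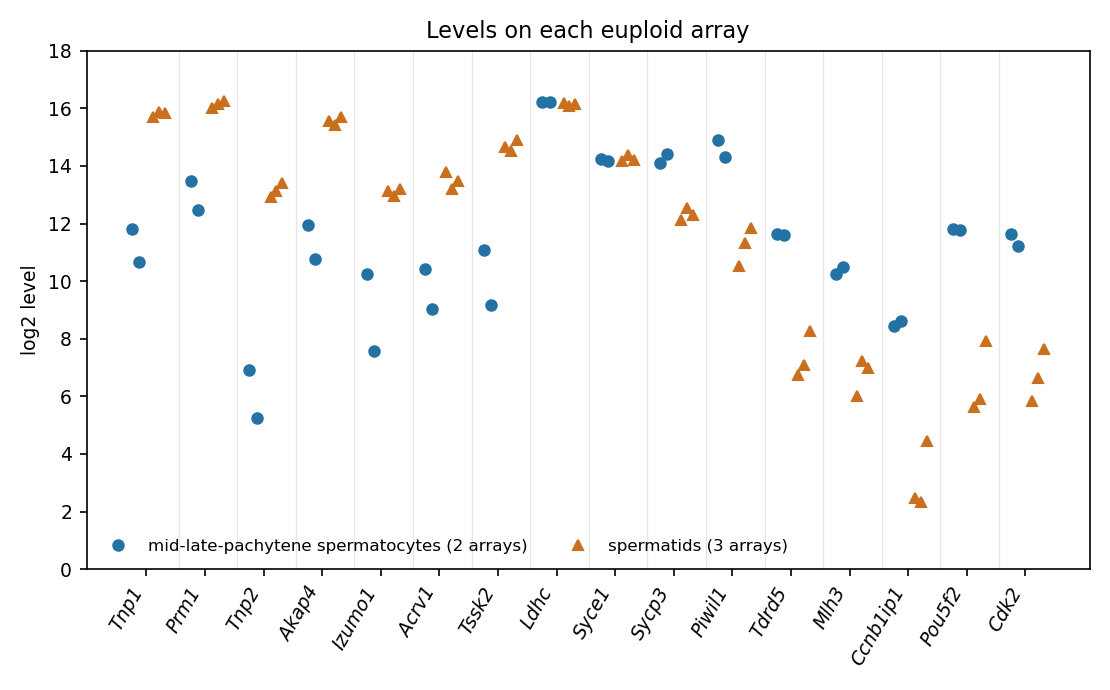
Log2 level of selected genes on the 2 mid-late-pachytene arrays and the 3 spermatid arrays of euploid males, side by side in 1 panel, 1 point per array. Tnp2 rises from 6.92 and 5.26 to 12.92, 13.13 and 13.42, while Ldhc has 16.21 and 16.23 on the pachytene arrays and 16.19, 16.08 and 16.15 on the spermatid arrays.

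The sperm tail has a microtubule core, the axoneme, and sheaths and fibres around it. Of 24 tested genes of the fibrous sheath, outer dense fibres and mitochondrial sheath, 19 rose and none fell (79.2% and 0%, against 29.9% and 35.0% of all genes). The median change was 3.08 (2.60 and 3.50 against pachytene array 1 and 2 alone). Akap4, the X-linked main protein of the fibrous sheath, had 11.95 and 10.76 on the pachytene arrays and 15.55, 15.41 and 15.70 on the spermatid arrays and rose by 4.20 ± 0.30 (SE, adjusted p = 1.43e-09), which was 3.61 against pachytene array 1 alone and 4.80 against array 2 alone. Odf1, a protein of the outer dense fibres, had 12.32 and 10.75 on the pachytene arrays and 15.04, 14.87 and 15.09 on the spermatid arrays and rose by 3.46 ± 0.33 (SE, adjusted p = 4.12e-08). Smcp, which lies in the mitochondrial capsule, rose by 3.31 ± 0.28 (SE, adjusted p = 1.02e-08), and Cabs1, a calcium-binding spermatid protein, by 5.2 ± 0.30 (SE, adjusted p = 1.27e-10). No array of these genes overlapped between the cell types. Ropn1l, a fibrous sheath protein, had 16.19 and 16.18 on the pachytene arrays and 16.23, 16.27 and 16.32 on the spermatid arrays and did not pass the test, although its relative Ropn1 rose by 3.75 ± 0.42 (SE, adjusted p = 3.57e-07). The 100 bases before the start of Akap4 (chrX:7067415-7067514, plus strand) hold TGATGTCA, in capitals.
Akap4: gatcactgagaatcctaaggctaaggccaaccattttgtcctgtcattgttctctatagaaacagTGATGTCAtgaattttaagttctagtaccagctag

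Of 31 tested genes of the axoneme and of intraflagellar transport, 6 were higher, 11 lower and 14 not called (19.4% higher and 35.5% lower, against 29.9% and 35.0% of all genes), with a median change of -0.35. Among dynein heavy chains, the motors of the axoneme, Dnah2 had 13.65 and 13.32 on the pachytene arrays and 11.60, 12.19 and 11.61 on the spermatid arrays (-1.68 ± 0.21 SE, adjusted p = 1.6e-06). Dnah1, Dnah8 and Dnah12 changed by -1.13, -1.08 and -1.02, all with lower values on every spermatid array. Dnah9, a heavy chain of motile cilia, went from 3.01 and 2.22 to 6.31, 5.92 and 6.35 (3.58 ± 0.24 SE, adjusted p = 7.91e-10). Kif3a, a subunit of the kinesin that drives transport toward the tip, changed by -1.91 ± 0.26 (SE, adjusted p = 2.99e-06). Rsph1, a radial spoke protein, had 16.41 and 16.35 on the pachytene arrays and 15.97, 16.05 and 15.98 on the spermatid arrays, and Ift140, of the transport complex A, had 14.95 and 14.81 on the pachytene arrays and 14.56, 14.66 and 14.37 on the spermatid arrays. Neither passed the test.

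Of 16 tested genes of head shaping and the manchette, the microtubule skirt of the elongating nucleus, 10 were higher and 1 lower (62.5% and 6.25%, against 29.9% and 35.0% of all genes). The median change was 1.52 (1.31 and 1.73 against pachytene array 1 and 2 alone). Spem1, needed to strip cytoplasm from the sperm head, had 5.82 and 6.17 on the pachytene arrays and 10.93, 10.94 and 11.45 on the spermatid arrays and rose by 5.11 ± 0.37 (SE, adjusted p = 1.5e-09). The nuclear envelope proteins Sun5, Spag4 and Sun3 rose by 4.32, 4.33 and 2.25. For Sun5 the rise was 3.32 against pachytene array 1 alone and 5.32 against array 2 alone. Rimbp3, a manchette protein, had 14.65 and 14.61 on the pachytene arrays and 14.76, 14.95 and 14.83 on the spermatid arrays and did not pass the test. Among 13 tested genes of ion channels and signalling of mature sperm, 6 rose and 2 fell (46.2% higher and 15.4% lower, against 29.9% and 35.0% of all genes). Catsper1, a pore subunit of the sperm calcium channel, had 9.79 and 8.51 on the pachytene arrays and 13.01, 12.59 and 12.88 on the spermatid arrays and rose by 3.68 ± 0.42 (SE, adjusted p = 4.61e-07), and Catsper3 rose by 3.48 ± 0.54 (SE, adjusted p = 1.74e-05). Plcz1, the phospholipase that activates the egg, rose by 3.92 ± 0.29 (SE, adjusted p = 2.23e-09). Catsperd, an auxiliary subunit of the same channel, had 13.10 and 13.09 on the pachytene arrays and 12.79, 12.85 and 12.69 on the spermatid arrays and was not called, and Slc26a8, an anion transporter, changed by -1.79 ± 0.38 (SE, adjusted p = 0.000444). The differences between subunits of the channel were not tested.

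**Figure D3:**
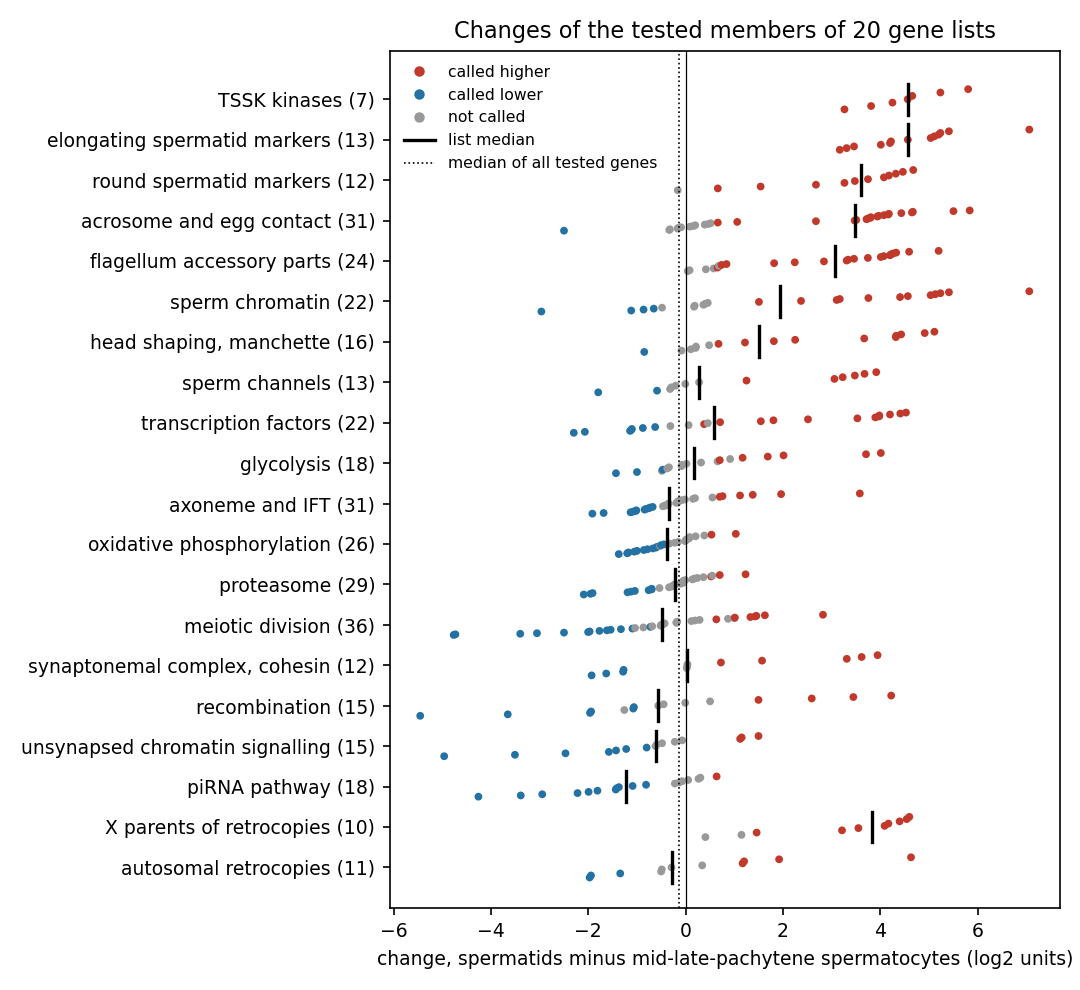
Change of each tested member (points, log2 spermatids minus mid-late pachytene) of 20 gene lists, with the list median as a bar. The testis-specific serine kinases and elongating spermatid markers lie wholly above 3, while the piRNA pathway lies mostly below 0.

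Transcription factors of the haploid program went both ways, with 12 of 22 higher and 7 lower (54.5% and 31.8%, against 29.9% and 35.0% of all genes). Fewer were called lower without pachytene array 2. Fhl5, known as ACT, a coactivator of CREM in spermatids, had 9.34 and 8.01 on the pachytene arrays and 13.33, 12.82 and 13.47 on the spermatid arrays and rose by 4.53 ± 0.34 (SE, adjusted p = 2.22e-09). Rfx1 and Rfx3, factors that bind X-boxes of cilium genes, rose by 4.41 ± 0.26 (SE, adjusted p = 1.29e-10), and by 4.20 ± 0.41 (SE, adjusted p = 5.67e-08). Other members of this family did not follow, as Rfx4 changed by -1.11 and Rfx2 by 0.71. The call of Rfx2 was lost with quantile normalization, with autosomal centring and without pachytene array 1 or spermatid array 1. That of Rfx4 was lost without pachytene array 2. The change of Rfx2 was 0.49 against pachytene array 2 alone, and that of Rfx4 -0.90 against array 1 alone. Sox5, an HMG-box factor, rose by 3.9 ± 0.46 (SE, adjusted p = 5.98e-07), and Taf7l, an X-linked TFIID subunit, by 3.98 ± 0.49 (SE, adjusted p = 1.03e-06). Against pachytene array 1 alone the rises of Rfx1, Sox5 and Taf7l were 3.74, 2.86 and 2.85, and against array 2 alone 5.09, 4.94 and 5.10. Tbpl1, a TBP-like factor needed for spermatid genes, had 13.16 and 13.04 on the pachytene arrays and 11.05, 11 and 11.04 on the spermatid arrays and changed by -2.07 ± 0.18 (SE, adjusted p = 1.56e-08). Mybl1, the MYB factor of pachytene genes, changed by -2.30 ± 0.34 (SE, adjusted p = 9.49e-06), and its pachytene arrays, at 5.08 and 6.90, lay apart. The change of Mybl1 was -1.39 against pachytene array 1 alone and -3.21 against array 2 alone. Crem itself changed by -0.62 ± 0.23 (SE, adjusted p = 0.0255), and this call was lost without either pachytene array or without spermatid array 1. Tcfl5, a factor of the same stages, had 15.99 and 15.81 on the pachytene arrays and 15.61, 15.59 and 15.57 on the spermatid arrays and was not called.

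The letters of promoters were set against the changes as a description. RefSeq's table, with 250 bases before and 50 after each start, matched 7187 of the 8727 tested genes. The full cAMP response element TGACGTCA, searched on both strands, was in 3.61% of 1165 genes higher by at least 2 log2 units, 3.45% of 666 lower by as much, 3.68% of 2526 genes not called and 2.03% of all 27025 genes in the table. With its middle bases free (TGANNTCA, which includes the full element; a search added after the data were seen), the shares were 22.9%, 11.3%, 10.9% and 15.9%. Within TGANNTCA, the letters TGATGTCA or their reverse complement TGACATCA were held by 8.58% (100 genes), 1.35%, 1.70% and 4.18% in the same order. They were the most contrasting of the 10 middles compared, TGACCTCA having 4.72%, 1.95%, 1.74% and 2.4% and TGAACTCA 1.37%, 1.35%, 0.99% and 2.22%. Of the 114 matches in genes higher by at least 2 log2 units, 80.7% lay within the 100 bases before the start, against 56.8% of 1269 matches in all promoters, 45.5% of 11 in genes lower by as much and 44.2% of 43 in genes not called. Among 210 tested genes with TGATGTCA, 134 were higher (63.8%), 33 lower (15.7%) and 43 not called, against 30.2% higher and 34.7% lower of all 7187. TGATGTCA was picked from the 10 middles for its contrast in these same calls. The excess of higher genes among its carriers thus repeats that contrast and is no separate result, and the positions come from the same genes.

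The genes with TGATGTCA included Tnp1, Akap4, Actl7a and Spam1, whose windows are printed above, and also Akap3, Gapdhs, Septin4, Sun5, Spaca7, Lyzl6 and Hyal5, all called higher. Other list members with these letters were not: Prc1 was called lower (-1.77), and Hk1 and Pgam2 were not called. Spag6l and Rad51c, both called lower, held the full TGACGTCA. The printed windows with TGANNTCA are all from genes called higher. The palindromes AGTNNACT and ATGNNCAT, of the same letters in another order, were in 6.44% and 5.58% of the genes higher by at least 2 log2 units and in 5.54% and 2.53% of those not called. The median GC content differed as well, at 55.2% for promoters of the genes higher by at least 2 log2 units and 60.7% for those not called. Its part in these shares was not tested. The X-box core GTTGCCATG was in 1.97% of the genes higher by at least 2 log2 units, 0.45% of those lower, 0.99% of those not called and 0.877% of all. The MYB core CAACTG was in 17.2%, 13.5%, 12.7% and 15.4%, in the same order. A match is a string of letters, not a bound site.

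The piRNA pathway makes small RNAs that silence transposons and is most active in pachytene. Of its 18 tested genes 11 were lower and 1 higher (61.1% lower and 5.56% higher, against 35.0% and 29.9% of all genes), with a median change of -1.23. Piwil1 (MIWI), the Argonaute protein that carries pachytene piRNAs, had 14.91 and 14.32 on the pachytene arrays and 10.52, 11.31 and 11.86 on the spermatid arrays, a fall of 10.5-fold (-3.39 ± 0.38 SE, adjusted p = 2.9e-07). Tdrd5, a tudor-domain protein of piRNA processing, had 11.63 and 11.61 on the pachytene arrays and 6.75, 7.07 and 8.27 on the spermatid arrays (-4.26 ± 0.37 SE, adjusted p = 1.55e-08). Pld6, a nuclease of the mitochondrial surface that cuts piRNA precursors, changed by -2.95 ± 0.58 (SE, adjusted p = 0.000205). Piwil2 (MILI) changed by -2.22 ± 0.21 (SE, adjusted p = 5.18e-08), and the helicases Tdrd9 and Mov10l1 by -1.99 and -1.81. The spermatid arrays of these genes all lay below the pachytene arrays. Mael and Ddx4 (VASA), proteins of the germ cell granules, had no such gap, with 15.99 and 16.01 on the pachytene arrays and 15.98, 15.89 and 15.93 on the spermatid arrays for Mael and 15.29 and 15.25 on the pachytene arrays and 15.14, 15.17 and 15.12 on the spermatid arrays for Ddx4, and neither passed the test. The 1 gene that rose, Gtsf1, changed by 0.64 ± 0.23 (SE, adjusted p = 0.022), a call lost without pachytene array 2, without spermatid array 1, with the replicate block and with arrays centred on the autosomal median. Pachytene piRNA genes are known targets of MYBL1. The MYB core was in 2 of 16 piRNA pathway genes with a promoter (12.5%), near its 12.7% in genes not called. In 1 of them the 100 bases before the start of Piwil1 (chr5:128736146-128736245, plus strand) hold CAGTTG, the reverse complement of the MYB core, in capitals.
Piwil1: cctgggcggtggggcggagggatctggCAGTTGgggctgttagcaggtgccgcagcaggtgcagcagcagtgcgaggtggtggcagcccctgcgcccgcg

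Genes of meiotic prophase changed in both directions. Among 12 tested genes of the synaptonemal complex and cohesin, 5 were higher and 4 lower (41.7% higher and 33.3% lower, against 29.9% and 35.0% of all genes), of which 2 were called lower without pachytene array 2. Sycp3, of the lateral elements, had 14.09 and 14.40 on the pachytene arrays and 12.13, 12.53 and 12.29 on the spermatid arrays (-1.93 ± 0.17 SE, adjusted p = 1.47e-08), and its partner Sycp2 changed by -1.63 ± 0.16 (SE, adjusted p = 4.49e-08). Syce1, of the central element, had 14.24 and 14.17 on the pachytene arrays and 14.16, 14.37 and 14.20 on the spermatid arrays and was not called. Rec8, the meiotic kleisin of cohesin, had 8.11 and 6.62 on the pachytene arrays and 11.43, 11.16 and 11.34 on the spermatid arrays and rose by 3.95 ± 0.33 (SE, adjusted p = 8.82e-09). Syce2, of the central element, had 10.94 and 9.83 on the pachytene arrays and 13.55, 13.62 and 13.93 on the spermatid arrays and rose by 3.31 ± 0.51 (SE, adjusted p = 1.42e-05). In pre-mid-pachytene spermatocytes the means of Rec8 and Syce2 were 8.08 and 14.54, above both later cell types for Syce2. Pachytene array 2 was the lower of the pair for both, and the rises were 3.20 against pachytene array 1 alone and 4.69 against array 2 alone for Rec8 and 2.76 against pachytene array 1 alone and 3.87 against array 2 alone for Syce2.

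Of 15 tested recombination genes, 4 rose and 6 fell (26.7% higher and 40% lower, against 29.9% and 35.0% of all genes), with a median of -0.56. Ccnb1ip1 (HEI10), which designates crossovers, had 8.45 and 8.62 on the pachytene arrays and 2.46, 2.34 and 4.45 on the spermatid arrays, a fall of 43.8-fold (-5.45 ± 0.40 SE, adjusted p = 2.15e-09). Mlh3, of the nuclease that resolves crossovers, had 10.26 and 10.50 on the pachytene arrays and 6.0, 7.21 and 6.97 on the spermatid arrays (-3.65 ± 0.28 SE, adjusted p = 2.97e-09). Spo11, which makes the double-strand breaks, changed by -1.06 ± 0.23 (SE, adjusted p = 0.000609). Msh4 and Tex15, which act at earlier steps of repair, rose by 2.59 ± 0.21 (SE, adjusted p = 7.03e-09), and by 3.45 ± 0.40 (SE, adjusted p = 5.09e-07). X-linked Tex11, a partner of the crossover machinery, had 3.74 and 3.36 on the pachytene arrays and 7.70, 7.73 and 7.90 on the spermatid arrays. Of 15 genes of the signalling on unsynapsed chromatin, 7 fell and 3 rose (20% higher and 46.7% lower, against 29.9% and 35.0% of all genes). Rad1, a clamp subunit of the checkpoint, had 7.64 and 8.15 on the pachytene arrays and 2.93, 2.72 and 3.16 on the spermatid arrays, with spermatid arrays at the edge of the background range (-4.96 ± 0.28 SE, adjusted p = 1.01e-10). Bard1 and Topbp1, partners of BRCA1 and of the kinase ATR, changed by -3.51 ± 0.32 (SE, adjusted p = 2.96e-08), and by -2.47 ± 0.32 (SE, adjusted p = 2.12e-06). Brca1 went the other way, from 3.32 and 3.31 to 4.57, 4.89 and 4.98 (1.5 ± 0.31 SE, adjusted p = 0.000391). H2ax, the histone that is phosphorylated there, had 10.96 and 10.53 on the pachytene arrays and 10.75, 11.04 and 10.24 on the spermatid arrays and was not called.

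Of 36 tested genes of the meiotic divisions, which lie between both cell types, 13 were lower, 7 higher and 16 not called (19.4% higher and 36.1% lower, against 29.9% and 35.0% of all genes), with a median of -0.49. Sgo2a (shugoshin 2), which protects centromeric cohesin, had 9.87 and 10.68 on the pachytene arrays and 5.45, 5.12 and 5.95 on the spermatid arrays (-4.77 ± 0.45 SE, adjusted p = 4.41e-08). Cdk2, a cyclin-dependent kinase required in meiotic prophase, had 11.64 and 11.23 on the pachytene arrays and 5.83, 6.63 and 7.65 on the spermatid arrays (-4.73 ± 0.41 SE, adjusted p = 1.39e-08). Mad2l1, of the spindle checkpoint, changed by -3.40 ± 0.51 (SE, adjusted p = 1.05e-05), and Kif11, a motor of the spindle, by -3.05 ± 0.33 (SE, adjusted p = 2.3e-07). For all of these each spermatid array was below each pachytene array. Cdc25c, a phosphatase that activates CDK1, rose from 7.81 and 6.95 to 10.10, 10.22 and 10.29 (2.82 ± 0.21 SE, adjusted p = 2.16e-09), and Fzr1, an activator of the anaphase-promoting complex, by 1.33 ± 0.26 (SE, adjusted p = 0.000218). Ccna1, the germ cell cyclin A, had 13.26 and 13.53 on the pachytene arrays and 13.67, 13.87 and 13.51 on the spermatid arrays, and Plk1, a kinase of division, had 13.72 and 13.86 on the pachytene arrays and 13.93, 14.17 and 13.85 on the spermatid arrays. Neither passed the test. Nek2, another division kinase, had 15.48 and 15.60 on the pachytene arrays and 14.63, 14.95 and 14.44 on the spermatid arrays, each spermatid array below each pachytene array, and an adjusted p of 0.117. On the livers, whose spread enters the fit, the median of the division list was 2.58 to 3.28 on 5 arrays and 5.67 on trisomic liver array 3. Without that array, an alternative added after the data were seen, 18 division genes were lower and 9 higher, Nek2, Cdc20 and Aurka among the lower (adjusted p = 0.0252, 0.0229 and 0.0361). Without any liver array 20 were lower and 8 higher. Of all genes, 35% were lower and 29.8% higher without trisomic liver array 3, and 35% and 30.1% without any liver array.

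Most tested genes of the X chromosome rose. Of 542 X genes on the arrays 180 were tested, and 149 of them rose (82.8%), 1 fell and 30 were not called, with a median change of 3.49. On the autosomes 28.8% of 8527 genes rose and 35.8% fell, and the median of each autosome lay between -0.29 and -0.07. The count and median for X were 146 and 3.04 against pachytene array 1 alone, and 145 and 3.81 against array 2 alone. A score of each array, the median level of tested X genes minus that of tested autosomal genes, was -4.42 and -4.78 on the pachytene arrays and -1.08, -1.33 and -0.93 on the spermatid arrays. The difference of 3.48 is a description, since 75 of the 180 genes met the minimum mean in spermatids only and that choice itself sets the groups apart. Pre-mid-pachytene arrays had scores of -0.62 to -0.57, and liver arrays -2.43 to -2.17.

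**Figure D4:**
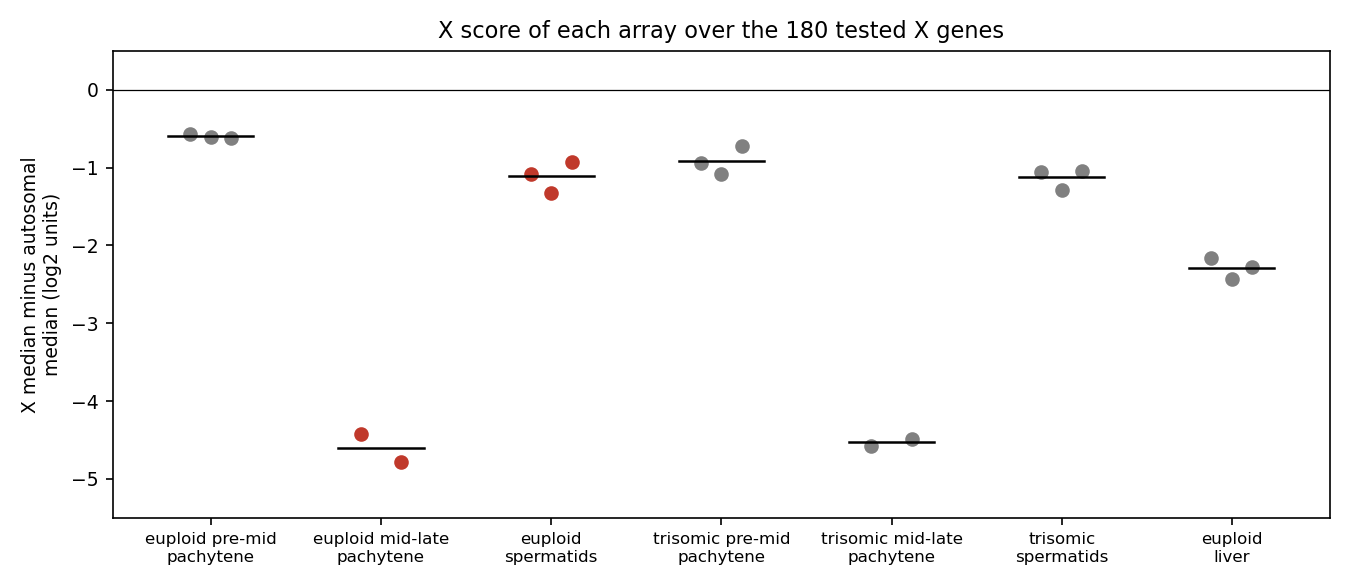
X score of each germ cell and euploid liver array (median log2 level of the 180 tested X genes minus that of the 8527 tested autosomal genes), 1 point per array, by cell type and genotype. The 2 euploid mid-late-pachytene arrays lie at -4.42 and -4.78, below all other euploid arrays.

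The size of this difference varied with the choice of genes, and a gene silent in pachytene entered only when it was on in spermatids. Only 4 of the 180 X genes met the minimum in pachytene alone. Among the 101 X genes at a mean of at least 4 in both cell types, 81 rose (80.2%) and none fell, with a median change of 3.70, against 25.7% higher and a median of -0.20 for 7532 autosomal genes. In a selection added after the data were seen, genes were chosen by a mean of at least 6 in pre-mid-pachytene spermatocytes, which neither group of the comparison enters. That sort held spermatid markers at high levels, as given above, so this choice may itself favour genes on in spermatids, which was not tested. Of 188 such X genes 109 rose (58%) and 1 fell, with a median change of 1.58, against 24.3% higher and 36.4% lower of 6753 autosomal genes. The score then was -5.65 and -5.77 on the pachytene arrays and -3.22, -3.79 and -3.24 on the spermatid arrays, with a difference of 2.29 (exact permutation test of the 5 arrays, two-sided p = 0.1, the smallest p that 2 against 3 arrays allow). Without any filter, over all 542 X genes on the table, the difference of the scores was -0.029 (exact permutation p = 0.8). The fit without a filter called 156 X genes higher.

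X genes differed in how far they came back to their pre-mid-pachytene level. The median level of the 188 X genes expressed in pre-mid pachytene was 8.49 there, 3.84 in mid-late pachytene and 6.0 in spermatids, while the autosomal genes had 9.27, 9.50 and 9.55. In the background range on both pachytene arrays were 41 of these X genes (21.8%) and 2.4% of the autosomal ones, and on all spermatid arrays 26 (13.8%) and 2.52%. Of the 180 tested X genes, 76 had a spermatid mean more than 1 log2 unit above the pre-mid-pachytene mean, 31 lay within 1 unit and 73 more than 1 unit below. The pre-mid-pachytene arrays also held spermatid markers at high levels, as given above, and their part in the X levels of that sort was not tested.

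The largest X-linked rises were those of Ppp1r2-ps7, 4933400A11Rik, Gm614, Rnf138rt1, Dusp21 and Pbdc1, between 5.92 and 6.44 log2 units. Dusp21, a dual-specificity phosphatase, had 2.95 and 2.89 on the pachytene arrays and 8.93, 8.25 and 9.44 on the spermatid arrays and rose by 5.95 ± 0.37 (SE, adjusted p = 3.1e-10). Pbdc1 had 5.2 and 3.50 on the pachytene arrays and 10.26, 10.39 and 10.16 on the spermatid arrays and rose by 5.92 ± 0.47 (SE, adjusted p = 4.81e-09), and its mean in pre-mid pachytene was 11.61. Ppp1r2-ps7, a copy of an inhibitor of protein phosphatase 1, had 4.39 and 4.0 on the pachytene arrays and 10.36, 10.45 and 11.07 on the spermatid arrays. Atp6ap1, a subunit that accompanies the proton pump, was the single X gene that fell, with 4.39 and 5.24 on the pachytene arrays and 3.85, 3.64 and 3.66 on the spermatid arrays (-1.10 ± 0.21 SE, adjusted p = 0.000147). The change of Atp6ap1 was -0.67 against pachytene array 1 alone and -1.52 against array 2 alone. Its change in the trisomic arrays was 0.08. Of 10 sex-linked spermatid genes listed on the arrays 8 were tested and rose, against 82.8% of all tested X genes. The median change of the 8 was 3.68 (3.04 and 4.50 against pachytene array 1 and 2 alone). Cypt3, a cysteine-rich protein of the perinuclear theca, rose by 3.95 ± 0.35 (SE, adjusted p = 1.75e-08), and Actrt1, an actin-related protein of the sperm head, by 4.72 ± 0.45 (SE, adjusted p = 5.01e-08). The rises of Cypt3 and Actrt1 were 3.12 and 3.54 against pachytene array 1 alone, and 4.77 and 5.90 against array 2 alone. All 4 Y genes tested rose: Usp9y, a ubiquitin protease, by 5.72 ± 0.25 (SE, adjusted p = 4.45e-12), Eif2s3y, a translation factor subunit, by 3.41 ± 0.37 (SE, adjusted p = 2.57e-07), Uty, a demethylase-like gene, by 3.33 and Zfy2, a zinc finger factor, by 2.52. Probes of Y genes can also bind RNA of their X-linked relatives, so these values are uncertain.

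Autosomal retrocopies of X genes are held to serve in cells whose X is silent. Of 14 X-linked parent genes on the arrays 10 were tested, of which 8 rose (80%, against 82.8% of all tested X genes). The median change was 3.82 over the 10 and 2.34 over all 14, where the 10 include genes that met the minimum mean in spermatids only. Of 11 tested retrocopies or germ cell relatives 4 rose (2 without spermatid array 1) and 3 fell, with a median of -0.29 (36.4% higher and 27.3% lower, against 29.9% and 35.0% of all genes). With arrays centred on the autosomal median 6 of them fell. Whether parents and copies differ in their change was not tested. Cetn2, a centrin, had 3.29 and 2.87 on the pachytene arrays and 7.18, 7.39 and 7.86 on the spermatid arrays (4.40 ± 0.21 SE, adjusted p = 1.36e-11), while its retrocopy Cetn1 had 13.84 and 13.93 on the pachytene arrays and 13.41, 13.75 and 13.63 on the spermatid arrays and was not called. Utp14a, of ribosomal RNA processing, rose by 4.17 ± 0.48 (SE, adjusted p = 4.6e-07), which was 2.80 against pachytene array 1 alone and 5.53 against array 2 alone, and Utp14b had 10.44 and 10.14 on the pachytene arrays and 10.53, 10.91 and 10.46 on the spermatid arrays and was not called. Cstf2, of mRNA 3' end formation, rose by 1.46 ± 0.29 (SE, adjusted p = 2e-04), whereas Cstf2t had 13.27 and 13.74 on the pachytene arrays and 11.43, 11.75 and 11.43 on the spermatid arrays (-1.97 ± 0.19 SE, adjusted p = 5.74e-08). Ubl4a, a ubiquitin-like protein, had 5.85 and 3.0 on the pachytene arrays and 8.81, 9.07 and 9.20 on the spermatid arrays and rose by 4.6 ± 0.49 (SE, adjusted p = 1.88e-07), which was 3.17 against pachytene array 1 alone and 6.02 against array 2 alone. Its relative Ubl4b rose by 4.63 ± 0.38 (SE, adjusted p = 7.17e-09). Ddx3x, an RNA helicase, had 4.52 and 4.05 on the pachytene arrays and 4.74, 3.85 and 5.49 on the spermatid arrays, and its relative D1Pas1 had 12.75 and 12.90 on the pachytene arrays and 12.21, 12.34 and 12.42 on the spermatid arrays. Neither passed the test. Near-identical parent and copy can share probe signal, which makes these pairs uncertain.

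Sperm glycolysis uses isozymes of its own. Of 18 tested genes of glycolysis and these isozymes, 6 rose and 3 fell (33.3% higher and 16.7% lower, against 29.9% and 35.0% of all genes). The 3 became 1 without spermatid array 1 or 2. The median was 0.17 (0.038 and 0.22 against pachytene array 1 and 2 alone). Gapdhs, the dehydrogenase of sperm glycolysis, had 11.16 and 9.61 on the pachytene arrays and 14.45, 14.16 and 14.59 on the spermatid arrays and rose by 4.01 ± 0.42 (SE, adjusted p = 1.38e-07). Pkm, a pyruvate kinase, rose by 3.71 ± 0.25 (SE, adjusted p = 6.61e-10), Aldoa, an aldolase, by 2.01 ± 0.22 (SE, adjusted p = 2.04e-07), and Pgk2, the phosphoglycerate kinase of germ cells, by 1.17 ± 0.29 (SE, adjusted p = 0.0015). Ldhc, the lactate dehydrogenase of germ cells, had 16.21 and 16.23 on the pachytene arrays and 16.19, 16.08 and 16.15 on the spermatid arrays and was not called. The glucose transporter Slc2a3 changed by -1.43 ± 0.28 (SE, adjusted p = 0.000197), and Slc16a7, a lactate and pyruvate carrier, rose by 1.69 ± 0.31 (SE, adjusted p = 9.03e-05). Of 26 oxidative phosphorylation genes 2 rose and 12 fell (7.69% higher and 46.2% lower, against 29.9% and 35.0% of all genes), with a median of -0.39, and against pachytene array 2 alone 1 rose and 6 fell. Uqcrc2, of complex III, had 13.37 and 13.35 on the pachytene arrays and 11.76, 12.18 and 12.03 on the spermatid arrays (-1.37 ± 0.16 SE, adjusted p = 4.43e-07), Atp5a1, of the ATP synthase, changed by -1.20 ± 0.18 (SE, adjusted p = 1.36e-05), and Cyct, the testis cytochrome c, by -1.17 ± 0.30 (SE, adjusted p = 0.00195). Cox5a, of complex IV, had 15.14 and 14.98 on the pachytene arrays and 15.02, 15.12 and 15.09 on the spermatid arrays and was not called.

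Of 30 tested chaperone genes, 9 rose, 6 fell and 15 were not called (30% higher and 20% lower, against 29.9% and 35.0% of all genes). Hspa1l, an HSP70 of spermatids, had 10.52 and 9.32 on the pachytene arrays and 14.17, 14.28 and 14.71 on the spermatid arrays and rose by 4.47 ± 0.34 (SE, adjusted p = 2.75e-09), while Hspa2, the HSP70 of spermatocytes, had 14.73 and 14.44 on the pachytene arrays and 14.26, 14.24 and 13.92 on the spermatid arrays and was not called. The cofactors Dnajb7 and Dnajb8 rose by 5.0 ± 0.42 (SE, adjusted p = 8.49e-09), and by 4.79 ± 0.43 (SE, adjusted p = 2.26e-08). Calr3 and Pdilt, chaperones of the endoplasmic reticulum of germ cells, rose by 4.56 and 4.07, and Canx, the general calnexin gene, changed by -1.34 ± 0.20 (SE, adjusted p = 1.19e-05). Dnaja1 changed by -2.19 ± 0.25 (SE, adjusted p = 4.51e-07). For Hspa1l the rise was 3.87 against pachytene array 1 alone and 5.07 against array 2 alone, and for Dnajb7 4.02 against pachytene array 1 alone and 5.99 against array 2 alone. The window before the start of Hspa1l (chr17:34972603-34972702, plus strand) holds TGACCTCA, in capitals.
Hspa1l: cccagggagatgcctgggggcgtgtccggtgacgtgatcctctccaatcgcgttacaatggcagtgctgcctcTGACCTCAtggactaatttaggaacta

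Of 18 tested genes of mRNA storage and translational control 2 rose (1 without pachytene array 2) and 7 fell (11.1% higher and 38.9% lower, against 29.9% and 35.0% of all genes). Elavl1 (HuR), which binds AU-rich mRNAs, had 6.92 and 7.19 on the pachytene arrays and 4.08, 4.03 and 4.15 on the spermatid arrays (-2.96 ± 0.19 SE, adjusted p = 3.77e-10), and Tsn (translin), which binds stored mRNAs, changed by -2.62 ± 0.19 (SE, adjusted p = 1.87e-09). The cap-binding factor Eif4e changed by -1.56 ± 0.23 (SE, adjusted p = 8.14e-06). Ybx3, an mRNA-packaging protein, had 15.65 and 15.27 on the pachytene arrays and 15.42, 15.53 and 15.27 on the spermatid arrays and was not called. Among 13 ribosomal protein genes 1 rose and 5 fell (7.69% higher and 38.5% lower, against 29.9% and 35.0% of all genes), with a median of -0.28, and the germ cell form Rpl39l had 15.05 and 14.85 on the pachytene arrays and 14.98, 14.89 and 14.84 on the spermatid arrays and was not called. Of 29 tested proteasome genes 3 rose and 9 fell (10.3% higher and 31% lower, against 29.9% and 35.0% of all genes), with a median of -0.22. Psma8, the core subunit of meiotic cells, had 13.70 and 14.02 on the pachytene arrays and 11.77, 11.70 and 11.82 on the spermatid arrays (-2.09 ± 0.58 SE, adjusted p = 0.00416), and Psma6, another core subunit, rose by 1.23 ± 0.15 (SE, adjusted p = 1.25e-06). Among 8 tested apoptosis genes 5 fell and 1 rose (12.5% higher and 62.5% lower, against 29.9% and 35.0% of all genes). Pmaip1 (NOXA) changed by -2.88 ± 0.29 (SE, adjusted p = 8.09e-08), the survival gene Mcl1 by -1.97 ± 0.21 (SE, adjusted p = 2.05e-07), and Bcl2l14 rose by 3.73 ± 0.29 (SE, adjusted p = 3.59e-09).

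Few markers of somatic cells met the minimum mean. Between 7 and 8 of 16 Sertoli markers were below 3 on each of the 5 euploid arrays compared, and their summed level was 9.96 and 10.64 on the pachytene arrays, 10.42 to 11.23 on the spermatid arrays and 14.17 to 14.62 in pre-mid pachytene. Among the Sertoli markers tested, Amhr2, the receptor of anti-Müllerian hormone, was called higher by 1.10 and lost its call without pachytene array 1 or spermatid array 1, and the other 6 were not called. Of 10 immune markers 8 were below 3, and the macrophage gene Adgre1, the 1 tested, rose by 2.34 ± 0.31 (SE, adjusted p = 2.58e-06). Vwf, the von Willebrand factor of endothelium, was the only endothelial marker tested and rose by 3.85 ± 0.41 (SE, adjusted p = 2e-07). Among 10 hepatocyte markers 7 to 9 were below 3, and no hepatocyte or red blood cell marker met the minimum mean. Col3a1, a collagen of stromal cells, had 2.59 and 7.86 on the pachytene arrays and 2.83, 3.0 and 3.13 on the spermatid arrays, and its call as lower rested on pachytene array 2. Acta2 and Vim, also stromal, were not called. Of 7 Leydig markers 4 to 6 were below 3 on each of these arrays, while the summed level was 14.40 and 14.10 on the pachytene and 13.02 to 13.25 on the spermatid arrays. That sum lay almost wholly with Fdx1, a mitochondrial electron carrier that is also high in liver, with 14.40 and 14.09 on the pachytene arrays and 12.97, 13.24 and 13.20 on the spermatid arrays (-1.11 ± 0.16 SE, adjusted p = 5.05e-06). Star, Hsd17b3 and Nr5a1, of steroid synthesis and its control, were below 3 on all 5 arrays, and Cyp17a1 was not called. Of 14 spermatogonial markers, 10 to 13 were below 3 on each of these 5 arrays, and only 2 were tested. Both were called higher, Sohlh2, a transcription factor, by 1.84 ± 0.30 (SE, adjusted p = 2.4e-05), and X-linked Rhox13, a homeobox gene, by 2.85 ± 0.51 (SE, adjusted p = 7.66e-05). A gene low in pachytene was tested only where it met the minimum mean in spermatids, which favours rises. The median change was -0.0077 over all 14, -0.0087 over the 10 immune and 9.7e-05 over the 6 endothelial markers. The rise of Rhox13 was 4.11 against pachytene array 1 alone and 1.59 against array 2 alone. Whether other cells have a part in these values was not tested.

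The change was then set against the same change in the trisomic siblings, whose arrays the euploid comparison did not use. In the trisomic arrays 2494 genes (28.6%) were called higher and 2963 (34.0%) lower. Of the euploid higher genes 2351 were called higher there too, which is 90.1% of the euploid and 94.3% of the trisomic calls, and of the lower genes 2703 (88.4% and 91.2%). No gene was called in opposite directions. The changes correlated across the 8727 genes with r = 0.977, a description of genes measured on arrays processed in 1 study. X scores of the trisomic arrays were -4.58 and -4.49 in mid-late pachytene and -1.28 to -1.04 in spermatids.

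**Figure D5:**
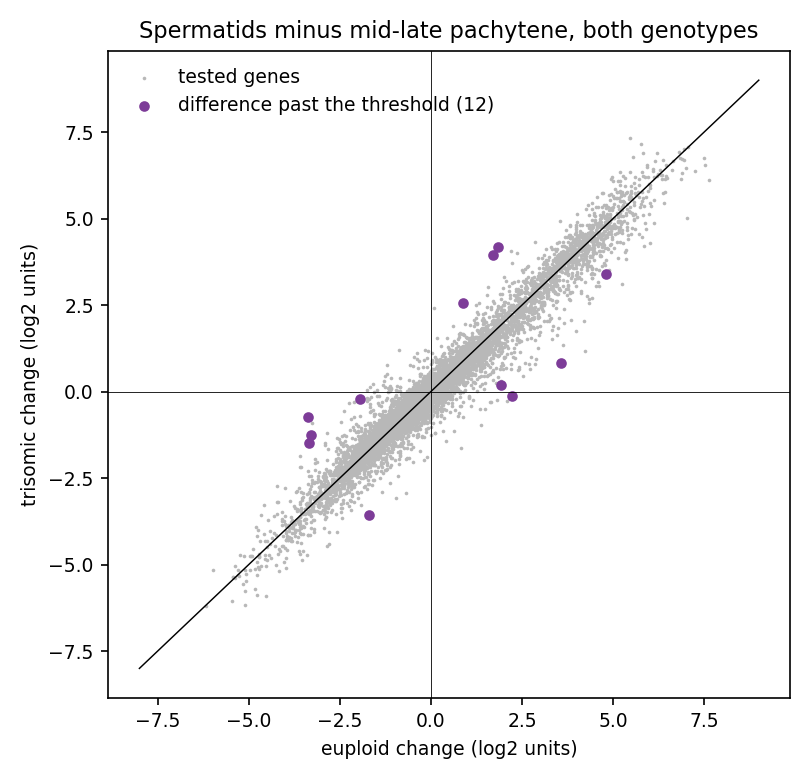
Change of each tested gene from mid-late pachytene to spermatids (log2) in euploid (x axis) and trisomic (y axis) males, with the 12 genes called for a different change between genotypes marked. Points follow the diagonal, and the 12 marked genes lie off it by 1.42 to 2.74 log2 units.

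Among genes chosen by their euploid level, the change differed between genotypes for 12 (0.138%), by an interaction term in limma with Benjamini-Hochberg adjustment, and for 312 at an unadjusted p under 0.05. This choice leaves out genes at the minimum mean in trisomic cells only, and some of the 12, such as Svs4 and Crp, met it through the genotype where they were high, so the 12 are no count of all differences. With genes at a mean of at least 4 in any of the 4 groups (8867 genes, an alternative added after the data were seen), 27 were called, with all 12 among them. Mas1, a G protein-coupled receptor on chromosome 17, changed by 1.83 in euploid and 4.18 in trisomic cells, from 4.93 and 4.81 to 6.96, 7.05 and 6.09 in the euploid arrays. Kcnip2, a subunit that modulates potassium channels, changed by 3.58 in euploid and 0.84 in trisomic cells, with euploid spermatid arrays at 5.82, 6.03 and 7.39. Crp, the C-reactive protein known from liver, had 4.45 and 6.51 on the pachytene arrays and 2.10, 2.10 and 2.11 on the spermatid arrays in the euploid cells, and changed by -3.38 there and -0.73 in trisomic cells. The count also moved with single arrays: it was 121 without pachytene array 1, 48 without pachytene array 2 and 21 without spermatid array 2, 8 to 17 without 1 trisomic mid-late-pachytene or spermatid array, and 0 in a limma fit of only the arrays compared, where 238 genes had an unadjusted p under 0.05.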

How the data were processed

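The authors deposited 1 log2 value for each probe set and array, made with GCRMA per the submitters' processing notes. GCRMA corrects the background by GC content, brings arrays to a common distribution and summarizes probes. Its version, and which arrays were normalized together, are not given in the sources used here. Values below 3 are called the background range here. Of 16539 probe sets, 15780 carry a gene name, taken from the platform annotation, and 759 without a name were left out. Where a gene had several probe sets, the one with the highest mean was used. Chromosomes come from a RefSeq gene table of GRCm38.p6, which placed all but 28 named genes. The number of arrays limits the precision.

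The tool limma 3.58.1 (R 4.3.3) was given all 22 arrays as 8 groups, which share 1 spread per gene, and changes were called at a two-sided Benjamini-Hochberg adjusted p of 0.05 over the 8727 genes. Every adjusted p in the text is from this fit. The difference from the trisomic change was an interaction term of the same fit. The steps were tested on simulated data. Promoters were searched and plots drawn in python 3.11.15 with matplotlib 3.10.9. The 34 gene lists hold 667 symbols, of which 541 were on the table and 439 tested, and they are described by counts and medians. Members and lists were chosen with earlier results of these data known. Named genes are the 12 largest rises and falls without overlapping arrays, members of the lists, the 6 largest rises on the X and its falls, and the 6 largest interaction terms.

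Replicate numbers were not used to pair the samples in the main fit. Only 2 numbers are shared, and the labels do not say whether they mark an animal. Across genes, the difference between pachytene arrays 1 and 2 correlated with that between spermatid arrays 1 and 2 at r = -0.04. This value cannot tell whether same-numbered arrays share an animal. Alternatives were other filters, quantile normalization, autosomal centring, other fits, a replicate block, single probe sets and each compared array left out.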

Additional observations from a re-analysis of the deposited data

Results flagged for a closer look

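The change from mid-late pachytene to spermatids differed between euploid and trisomic germ cells for 12 genes, by limma's interaction term with Benjamini-Hochberg adjustment, given as the euploid change minus the trisomic change in log2 units. The genes tested were chosen by their euploid level, so genes such as Svs4, Crp, Lat2, Lypd6b and Frmd4a, low in trisomic cells, could enter while genes high in trisomic cells only could not. With genes at the minimum mean in any of the 4 groups all 12 were among 27 called, and a limma fit of only the arrays compared called 0, with 238 at an unadjusted p under 0.05. For Kcnip2, a potassium channel subunit, the difference was 2.74 (adjusted p = 0.024), from changes of 3.58 and 0.84. Kcnip2 had 5.82, 6.03 and 7.39 on the euploid and 3.31, 3.32 and 4.35 on the trisomic spermatid arrays, without overlap. For Aox4, an aldehyde oxidase, the difference was 2.36 (adjusted p = 0.035), from changes of 2.22 and -0.14. Aox4 had 6.13, 5.53 and 6.83 on the euploid and 4.0, 3.25 and 3.42 on the trisomic spermatid arrays, without overlap. For Smtnl2, a smoothelin-like gene, the difference was 1.87 (adjusted p = 0.00194), from changes of -1.70 and -3.57. Smtnl2 had 4.97 and 4.34 on the euploid and 6.67 and 6.88 on the trisomic pachytene arrays, without overlap. For Svs4, a seminal vesicle secretory protein gene, the difference was 1.74 (adjusted p = 0.00256), from changes of 1.92 and 0.19. Svs4 had 4.58, 3.93 and 4.48 on the euploid and 2.57, 2.82 and 2.36 on the trisomic spermatid arrays, without overlap. For Large2, a glycosyltransferase gene, the difference was 1.42 (adjusted p = 0.00194), from changes of 4.82 and 3.40. Large2 had 7.21, 6.86 and 6.79 on the euploid and 5.59, 5.49 and 5.48 on the trisomic spermatid arrays, without overlap.

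For Crp, C-reactive protein, the difference was -2.65 (adjusted p = 0.0474), from changes of -3.38 and -0.73. Crp had 4.45 and 6.51 on the euploid and 2.40 and 3.17 on the trisomic pachytene arrays, without overlap. For Mas1, a G protein-coupled receptor, the difference was -2.35 (adjusted p = 0.0422), from changes of 1.83 and 4.18. Mas1 had 6.96, 7.05 and 6.09 on the euploid and 9.83, 9.53 and 9.63 on the trisomic spermatid arrays, without overlap. For 4930519F16Rik, an X-linked RIKEN gene, the difference was -2.23 (adjusted p = 0.00256), from changes of 1.71 and 3.94. 4930519F16Rik had 4.03, 4.11 and 4.83 on the euploid and 6.57, 5.87 and 6.63 on the trisomic spermatid arrays, without overlap. For Lypd6b, a LY6 domain gene, the difference was -2.03 (adjusted p = 0.0422), from changes of -3.30 and -1.26. Lypd6b had 5.76 and 5.58 on the euploid and 4.08 and 2.71 on the trisomic pachytene arrays, without overlap. For Lat2, an adaptor of immune cell signalling, the difference was -1.86 (adjusted p = 3.41e-05), from changes of -3.35 and -1.49. Lat2 had 5.43 and 5.65 on the euploid and 3.60 and 3.79 on the trisomic pachytene arrays, without overlap. For Frmd4a, a FERM domain scaffold gene, the difference was -1.73 (adjusted p = 0.0181), from changes of -1.93 and -0.20. Frmd4a had 5.53 and 5.09 on the euploid and 3.42 and 3.41 on the trisomic pachytene arrays, without overlap. For Ptp4a3, a phosphatase gene, the difference was -1.69 (adjusted p = 0.00526), from changes of 0.88 and 2.57. Ptp4a3 had 6.53 and 6.48 on the euploid and 4.75 and 4.28 on the trisomic pachytene arrays, without overlap. The 6 of these with smaller terms than the naming rule covers were added after their values were seen. The gaps between genotypes are read from the same values that called the genes and are a description.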

How the results depend on the processing

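Across the alternatives on the main genes, calls higher numbered 2257 to 2711 and lower 2578 to 3606, and no called gene turned its direction. With genes chosen by pre-mid-pachytene level, an alternative added after seeing the data, they numbered 1754 and 2460 of fewer genes. Scaling moved the median of all changes, from -0.14 to -0.29 with quantile normalization and to -0.33 with autosomal centring, so small changes are relative to that choice. Of 384 named genes 57 lost their call in at least 1 alternative, 25 gained one and none reversed as a called gene. Without pachytene array 1 or 2, 87 or 86 values moved by over 1.5 times.

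X genes called higher numbered 109 to 157. The difference of the X scores reversed to -0.029 (exact permutation p = 0.8) with no filter and stayed between 2.29 and 4.08 otherwise. The interaction count was 37 with no filter, 27 with genes at the minimum mean in any of the 4 groups (added after seeing the data), 3 at a mean of at least 6, 0 with only the arrays compared and 6 with the replicate block, 9 to 121 with each euploid array left out, and 8 to 17 with each trisomic array or trisomic liver array 3 left out (added after seeing the data); the cause was not tested. With the replicate block 2571 genes were higher and 2926 lower. A mean over the probe sets of a gene was not run, since each fit used 1 per gene. The printed size of a change that starts or ends in the background range is a difference of means that rests on such values, and is uncertain.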
